A study of Mus musculus with 32 samples.

Results

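The 9 genes described here are markers of the meninges, the connective tissue sheets around the brain, and of mesenchyme, the loose embryonic tissue that forms them. They were chosen by name, as the rows of the count files whose symbol is Foxc1, Foxd1, Tbx18, Twist1, Aldh1a2, Lum, Dcn, Ogn or Mgp, and all 9 were found among 26331 named genes. RNA was counted in 32 libraries of mouse embryonic forebrain in 8 groups. In C57BL/6, 5 labelled Kat6b knockout (Kat6b-/-) and 5 wild-type cortices were taken at E15.5 (E, embryonic day) and 3 labelled knockout and 3 wild-type dorsal telencephalons at E12.5. In a mixed FVBxBALB/c background, 4 Tg(Kat6b) and 4 wild-type cortices were taken at E15.5, and 4 Tg(Kat6b) and 4 wild-type dorsal telencephalons at E12.5. Tg(Kat6b) embryos carry a transgene that raises Kat6b, a histone lysine acetyltransferase gene, and were kept on the mixed background because they were not viable on an inbred one. The labels describe no cell sorting, and age goes together with the dissected region.

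The meninges of the forebrain arise from neural crest and mesoderm and cover the cortex with layers of fibroblasts, vessels and matrix. Foxc1 is needed in the mouse for these layers to form, and meningeal cells make retinoic acid through Aldh1a2, a signal that reaches the cortex below. Fibroblasts of the meninges and of the overlying mesenchyme also lay down collagens and the small leucine-rich proteoglycans that bind to them. A dissected forebrain piece holds these genes' RNA as far as meninges and attached mesenchyme stay on it. In whole tissue, fewer such cells and less RNA per cell cannot be told apart.

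The 9 genes were compared between each genotype and its wild type, and between ages within each genotype. In the 4 comparisons of E15.5 with E12.5, 5 to 8 of the 9 passed the test as lower, where 22.5% to 28.2% of all genes did. Lum showed the largest fall of the 9 in each. In the 4 comparisons of a genotype with its wild type, 0 of 9 passed the test, where at most 0.0129% of all genes did. The spread between libraries of a group was wide. The same few libraries were high in most of the 9 genes at once.

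All 9 genes are protein coding and were placed on GRCm38.p6, the assembly of the mm10 build. Foxc1 (Entrez 17300) lies on chromosome 13 from 31806646 to 31810635, Foxd1 (15229) on chromosome 13 from 98354245 to 98356705 and Ogn (18295) on chromosome 13 from 49608015 to 49624501. Lum (17022) and Dcn (13179) lie beside each other on chromosome 10, from 97565501 to 97572703 and from 97479500 to 97518163. Aldh1a2 (19378) and Tbx18 (76365) lie on chromosome 9, from 71215789 to 71296243 and from 87702800 to 87731260. Twist1 (22160) lies on chromosome 12 from 33957671 to 33959831 and Mgp (17313) on chromosome 6 from 136872435 to 136875823. Exons of D030062O11Rik overlap Tbx18 on the other strand in the GENCODE M21 annotation. Whether counting used the strand is not given in the sources used here, so Tbx18 counts are uncertain to that extent. Ogn lies inside Cenpp on the other strand, with no exon in common.

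RefSeq promoter windows, 250 bases before to 50 after the start, were at hand for 6 of the 9 genes. The 250 bases before the start are shown for Twist1 and Ogn, the pair whose levels went together most closely over all libraries, and for Foxd1, whose level followed the others least. They come from GRCm38.p6, plus strand, at chr12:33957421-33957670 for Twist1, chr13:49607765-49608014 for Ogn and chr13:98353995-98354244 for Foxd1. Capitals mark matches to TATAAA and to the T-box motif AGGTGT, on either strand.
Twist1: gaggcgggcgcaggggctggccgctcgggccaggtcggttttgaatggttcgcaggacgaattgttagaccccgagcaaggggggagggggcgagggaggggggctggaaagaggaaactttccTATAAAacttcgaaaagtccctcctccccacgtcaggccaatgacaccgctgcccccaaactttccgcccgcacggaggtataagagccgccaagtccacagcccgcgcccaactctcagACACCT
Ogn: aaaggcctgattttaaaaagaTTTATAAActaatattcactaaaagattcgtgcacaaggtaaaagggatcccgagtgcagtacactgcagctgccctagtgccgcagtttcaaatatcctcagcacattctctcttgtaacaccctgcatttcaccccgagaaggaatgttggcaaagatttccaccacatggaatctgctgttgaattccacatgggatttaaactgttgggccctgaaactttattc
Foxd1: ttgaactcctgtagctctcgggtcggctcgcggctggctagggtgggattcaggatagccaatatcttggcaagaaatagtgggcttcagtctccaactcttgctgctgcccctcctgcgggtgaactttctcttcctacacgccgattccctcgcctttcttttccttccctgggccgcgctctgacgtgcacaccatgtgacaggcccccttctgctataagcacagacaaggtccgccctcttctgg
TATAAA occurred in the whole windows of 2 of the 6 genes, Twist1 and Ogn, against 13.6% of 32851 promoters of the same length. The Twist1 match begins 126 bases before the start, and the matches in Ogn, 229 and 227 bases before it, overlap each other on opposite strands. AGGTGT occurred in 2 of 6, Twist1 and Aldh1a2, against 13.7% of all promoters, and did not overlap TATAAA. The forkhead motif GTAAACA occurred in 0 of 6, against 3.65%, and the E-box CANNTG in 4 of 6, against 72.3%. The share of G and C was 66% in the Twist1 window, 42.3% in Ogn and 57.7% in Foxd1, around a median of 52.7% over all promoters. These matches describe the letters only, and binding was not measured.

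Total counts ranged from 10424813 to 49699656 per library. Kat6b stood at 174 ± 16.5 CPM (counts scaled to a common effective library size; SD, n = 5) in labelled knockout cortex at E15.5, against 171 ± 16.4 in wild type (n = 5), and at 154 ± 35.7 against 171 ± 22 at E12.5 (n = 3 each). Its counts are summed over the whole gene and do not check the knockout label. Cortical neural genes summed to 4690 to 10800 CPM in the 32 libraries, and Foxc1 and the other 8 genes to 11.4 to 368. In Tg(Kat6b) tissue Kat6b stood at 655 ± 75.3 CPM at E15.5, against 181 ± 31.3 in wild type, and at 551 ± 56.9 against 179 ± 21.2 at E12.5 (n = 4 each). Labelled knockout replicate 3 at E15.5 stood apart, with 19.5% of its counts in ribosomal RNA genes against at most 0.729% in any other library. Replicate 5 of labelled knockout and of C57BL/6 wild type, both titled E15.5, have a column name that says E12.5, and the knockout one is labelled dorsal telencephalon. Their erythroid genes summed to 195 and 256 CPM, beside 1370 to 9840 in the E12.5 libraries, and they were analysed as E15.5. All C57BL/6 libraries were in 1 sequencing batch and all FVBxBALB/c libraries in another, and the effects of background and batch cannot be told apart. Each library is 1 embryo where the labels give an embryo number, and where they give none, p-values measure the spread between samples that may be technical.

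**Figure D1:**
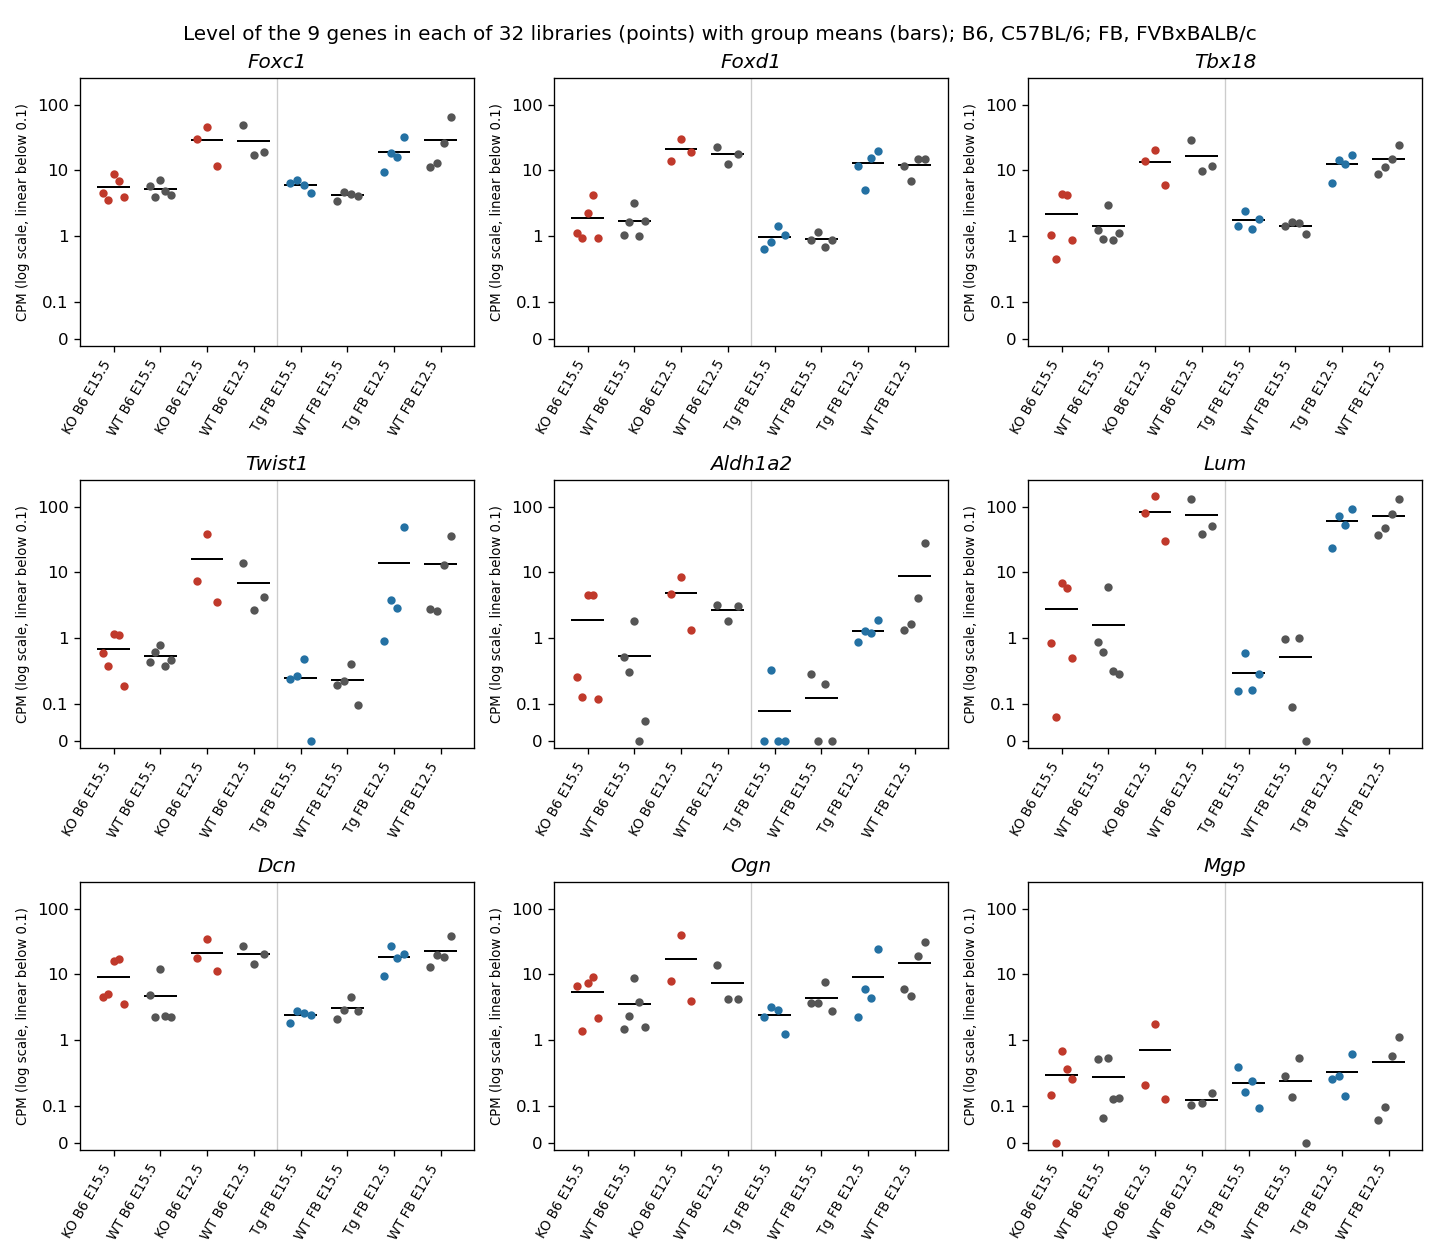
CPM of the 9 genes in every library (points) with the group mean (bar), on a log scale that is linear below 0.1, for labelled knockout (KO, red), Tg(Kat6b) (Tg, blue) and wild type (WT, grey). Foxc1, Foxd1, Tbx18 and Lum lie lower in each of the 18 E15.5 libraries than in any of the 14 E12.5 libraries. Mgp lies at similar low levels at both ages. Within single age comparisons, 21.9% to 27.7% of all genes tested lay wholly lower at E15.5.

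Among the transcription factors, Foxc1, Foxd1, Tbx18 and Twist1 fell with age in each of the 4 groups. A gene is called here at a Benjamini-Hochberg adjusted p below 0.05 over all genes tested, by edgeR's quasi-likelihood test. Of all genes tested, 56.4% were called in labelled knockout (27% lower and 29.4% higher at E15.5), 56.8% in C57BL/6 wild type (28.2% lower, 28.6% higher), 46.3% in Tg(Kat6b) (22.5% lower, 23.8% higher) and 50.1% in FVBxBALB/c wild type (25.1% lower, 25.1% higher). Of the 9 genes, 5, 6, 8 and 8 were called lower in the same order and 0 were called higher. In 5, 7, 7 and 7 of the 9, every E15.5 library lay below every E12.5 library. Of all genes tested, 27.7%, 26.3%, 22.3% and 21.9% did so. Median log2 fold changes of the 9 genes were -2.34, -2.43, -2.93 and -3.33, where the median over all genes was between -0.03 and -0.01. With 8 libraries left out that were chosen after seeing the data, for their high levels of these same genes, 7, 7, 7 and 8 of 8 genes tested were called lower. That choice narrows the spread within groups by construction, so these counts are no independent support.

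Foxc1, a forkhead factor of meningeal development, stood at 4.56, 3.58, 8.94, 6.98 and 4.02 CPM in labelled knockout cortex at E15.5, against 30, 45.5 and 11.6 in labelled knockout telencephalon at E12.5. In C57BL/6 wild type it stood at 5.91, 3.98, 7.06, 4.83 and 4.29 CPM at E15.5, against 48.3, 17.4 and 19.2 at E12.5. In both genotypes the lowest E12.5 embryo lay above the highest E15.5 embryo. The level was 5.08-fold lower at E15.5 in labelled knockout (adjusted p = 0.000289 by edgeR) and 5.40-fold lower in wild type (adjusted p = 0.000231), where the value without replicate 1 at E12.5 was 3.49-fold. In FVBxBALB/c it was 4.50 to 7.12 CPM in Tg(Kat6b) at E15.5 and 9.38 to 32.4 at E12.5, and 3.48 to 4.74 in wild type at E15.5 and 11.3 to 64.4 at E12.5. It fell 3.10-fold in Tg(Kat6b) and 6.72-fold in wild type (adjusted p = 0.00977 and 0.000217 by edgeR). The highest library was wild-type replicate 4 at E12.5, at 64.4 CPM. Without it the wild-type fall was 3.92-fold (adjusted p = 0.000315 by edgeR).

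Foxd1, a forkhead factor of meningeal and stromal progenitors, had larger estimated falls than Foxc1. The relative spread between E12.5 libraries (SD over mean) was smaller for Foxd1 than for Foxc1 in each group. The difference was narrow in Tg(Kat6b), at 49.1% for Foxd1 against 50.4% for Foxc1. There the highest library over the lowest was 4.04 for Foxd1 and 3.46 for Foxc1. Foxd1 stood at 1.12, 0.958, 2.25, 4.30 and 0.957 CPM in labelled knockout at E15.5, against 13.7, 30.2 and 19.3 at E12.5. In C57BL/6 wild type it stood at 1.06, 1.63, 3.26, 1.02 and 1.72 CPM at E15.5, against 22.8, 12.7 and 17.8 at E12.5. Every E15.5 embryo lay below every E12.5 embryo. The fall was 10.8-fold in labelled knockout, 9.78-fold in C57BL/6 wild type, 13-fold in Tg(Kat6b) and 12.8-fold in FVBxBALB/c wild type, with adjusted p between 2.11e-06 and 2.7e-05 by edgeR. Without replicate 4 at E15.5 the labelled knockout value was 16.2-fold. FVBxBALB/c levels were 0.991 ± 0.353 CPM in Tg(Kat6b) at E15.5 against 13 ± 6.37 at E12.5, and 0.906 ± 0.208 in wild type at E15.5 against 12.1 ± 3.68 at E12.5 (SD, n = 4 each).

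Tbx18, a T-box factor of mesenchyme and of cells around vessels, stood at 2.22 ± 1.97 CPM in labelled knockout at E15.5 against 13.5 ± 7.18 at E12.5, and at 1.43 ± 0.893 in C57BL/6 wild type at E15.5 against 16.8 ± 10.6 at E12.5 (SD, n = 5 and 3). In FVBxBALB/c it stood at 1.75 ± 0.515 CPM in Tg(Kat6b) at E15.5 against 12.6 ± 4.48 at E12.5, and at 1.44 ± 0.249 in wild type at E15.5 against 14.9 ± 6.89 at E12.5 (n = 4 each). Its falls ran between 6.04-fold in labelled knockout and 11.6-fold in C57BL/6 wild type, with 6.95-fold in Tg(Kat6b) and 10.1-fold in FVBxBALB/c wild type. All 4 passed by edgeR, with adjusted p of at most 0.00308. The C57BL/6 wild-type value rests in part on replicate 1 at E12.5, and without it the fall was 7.36-fold (adjusted p = 0.00431).

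Twist1, a basic helix-loop-helix factor of cranial mesenchyme and neural crest, differed widely between E12.5 libraries. It stood at 0.598, 0.383, 1.16, 1.12 and 0.191 CPM in labelled knockout at E15.5, against 7.33, 37.9 and 3.52 at E12.5. In Tg(Kat6b) it stood at 0.240, 0.272, 0.485 and 0 CPM at E15.5, against 0.902, 3.80, 2.92 and 49.0 at E12.5. FVBxBALB/c wild type had 0.194, 0.228, 0.410 and 0.0983 CPM at E15.5, against 2.83, 2.61, 12.8 and 35.6 at E12.5. A single Tg(Kat6b) library at E12.5, replicate 4, was more than 10 times as high as the other 3 of its group. The log2 fold changes with age were -4.60 (SE 0.766) in labelled knockout, -3.62 (0.783) in C57BL/6 wild type, -5.70 (1.41) in Tg(Kat6b) and -5.75 (1.42) in FVBxBALB/c wild type, with adjusted p of at most 0.00353 by edgeR. Without replicate 4 at E12.5 the Tg(Kat6b) value was -3.24, and without labelled knockout replicate 3 at E12.5 the knockout value was -2.98. Leaving out single libraries gave -4.00 to -2.59 in C57BL/6 wild type, the smallest without replicate 1 at E12.5, and -6.13 to -4.61 in FVBxBALB/c wild type, the smallest without replicate 4 at E12.5. The adjusted p stayed below 0.05 in each of these.

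Aldh1a2 encodes the retinaldehyde dehydrogenase through which meningeal cells make retinoic acid. In labelled knockout it stood at 0.262, 0.128, 4.50, 4.55 and 0.120 CPM at E15.5, against 4.71, 8.56 and 1.34 at E12.5. Replicates 3 and 4 at E15.5 lay within the E12.5 range and the other 3 below it. C57BL/6 wild type stood at 0.530, 0.306, 1.83, 0 and 0.0530 CPM at E15.5, against 3.22, 1.85 and 3.10 at E12.5. The age difference did not pass in either, at -1.35 (SE 1.07, adjusted p = 0.306) in labelled knockout and -2.35 (1.21, 0.114) in wild type on the log2 scale by edgeR. It passed in labelled knockout without replicates 3 and 4, at -4.79 (adjusted p = 0.00239 by edgeR). In wild type it passed without replicate 3 at E15.5, at -3.77 (0.0301). These were the highest E15.5 libraries of Aldh1a2 in their groups. Leaving them out enlarges the fall and narrows the spread by construction, so these passes are no independent support. In FVBxBALB/c wild type Aldh1a2 fell to 0.290, 0, 0.205 and 0 CPM at E15.5, against 1.32, 1.68, 4.07 and 27.9 at E12.5. The log2 change was -6.26 (SE 1.19, adjusted p = 0.000369 by edgeR). The value was -4.38 without replicate 4 at E12.5, -6.95 without replicate 1 and -5.64 without replicate 2 at E15.5, and stayed past the threshold in each. In Tg(Kat6b) it fell to 0, 0.326, 0 and 0 CPM at E15.5, against 0.876, 1.3, 1.2 and 1.87 at E12.5. That change of -3.51 passed narrowly (adjusted p = 0.0331), and rests at E15.5 on 6 reads in 1 library. It missed the threshold when any 1 of 6 libraries was left out, replicates 1, 2 and 4 at E12.5 and 1, 3 and 4 at E15.5, with values of -3.66 to -3.16. Without replicate 2 at E15.5 it was -7.93 and depends on the prior count, since the other 3 libraries hold no reads.

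Other genes of the retinoic acid pathway did not move as one. Of 15 tested in each background, 3 rose and 3 fell with age in labelled knockout, 4 and 3 in C57BL/6 wild type, 6 and 3 in Tg(Kat6b) and 5 and 4 in FVBxBALB/c wild type. Among all genes tested, 29.4%, 28.6%, 23.8% and 25.1% rose in that order, and 27%, 28.2%, 22.5% and 25.1% fell. Crabp2, a binding protein of retinoic acid, fell to 4.96 ± 1.64 CPM in Tg(Kat6b) at E15.5, against 83.6 ± 21.1 at E12.5 (SD, n = 4 each). Rxrg, a nuclear receptor gene, rose to 18.1 ± 4.08 CPM in labelled knockout at E15.5 (n = 5), against 2.29 ± 0.513 at E12.5 (n = 3). Cyp26b1, which encodes an enzyme that breaks down retinoic acid, rose to 19.1 ± 2.81 against 3.20 ± 1.09 CPM in the same libraries. Rxra, another receptor gene, fell to 28.7 ± 1.71 against 63.4 ± 9.41 CPM there.

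The matrix genes held both extremes. Lum encodes lumican, a small leucine-rich proteoglycan that spaces collagen fibrils. Per length of the counted transcript it was the most abundant of the 9 genes in all 4 groups at E12.5, at 40.5 ± 27.3 RPKM (CPM per kilobase) in labelled knockout and 35.4 ± 24.3 in C57BL/6 wild type (SD, n = 3 each). At E15.5 it was 1.35 ± 1.55 RPKM in labelled knockout and 0.778 ± 1.18 in C57BL/6 wild type (n = 5 each), behind Dcn, Ogn and Foxc1. In CPM, Lum stood at 0.860, 0.0639, 6.82, 5.74 and 0.503 in labelled knockout at E15.5, against 79.0, 143 and 30 at E12.5. C57BL/6 wild type had 0.883, 0.612, 5.97, 0.318 and 0.291 CPM at E15.5, against 131, 37.9 and 51.2 at E12.5. Over the series, no E15.5 library was above 6.82 CPM and no E12.5 library below 23.9.

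Lum fell 31.6-fold in labelled knockout, 46.7-fold in C57BL/6 wild type, 177-fold in Tg(Kat6b) and 148-fold in FVBxBALB/c wild type, with adjusted p of at most 0.000694 by edgeR. The 2 C57BL/6 values include the high replicates 3 and 4 of the labelled knockout and replicate 3 of wild type at E15.5. Without replicates 3 and 4 of the labelled knockout its log2 change was -7.28 in place of -4.98, and without replicate 3 at E15.5 that of wild type was -7.22 in place of -5.54. Single libraries moved these values by more than 1.5-fold elsewhere too. The labelled knockout value was -4.33 without replicate 3 at E12.5 and -5.59 without replicate 4 at E15.5, and the C57BL/6 wild-type value was -4.83 without replicate 1 at E12.5. The Tg(Kat6b) value was -8.19 without replicate 2 at E15.5, in place of -7.47, and the FVBxBALB/c wild-type value -7.93 without replicate 3 at E15.5, in place of -7.21. Each stayed past the threshold.

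Dcn encodes decorin, which binds collagen, and lies next to Lum. It stood at 4.52, 5.11, 15.9, 17.1 and 3.61 CPM in labelled knockout at E15.5, against 17.8, 34.3 and 11.4 at E12.5, so replicates 3 and 4 overlapped the earlier age. The log2 change of -1.17 (SE 0.635) did not pass (adjusted p = 0.134 by edgeR). Without those 2 libraries, the highest for Dcn at E15.5, the change was -2.25 and passed (adjusted p = 0.00778 by edgeR). Leaving them out enlarges the fall and narrows the spread by construction, so this pass is no independent support. Dcn fell 4.33-fold in C57BL/6 wild type (adjusted p = 0.0134), 7.62-fold in Tg(Kat6b) and 7.11-fold in FVBxBALB/c wild type (adjusted p of 8.93e-06 and 7.55e-06 by edgeR). Without wild-type replicate 1 at E12.5 the C57BL/6 value was -1.86 on the log2 scale and missed the threshold (adjusted p = 0.0632), and without replicate 3 at E15.5 it was -2.84 and passed.

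Ogn encodes osteoglycin, another proteoglycan of this kind, and its ages overlapped in all 4 groups. In Tg(Kat6b) it stood at 2.24, 3.21, 2.91 and 1.25 CPM at E15.5, against 2.29, 5.94, 4.47 and 24.3 at E12.5. In FVBxBALB/c wild type it stood at 3.68, 3.65, 7.58 and 2.75 CPM at E15.5, against 5.97, 4.79, 18.8 and 31.3 at E12.5. Both falls passed narrowly, at -1.88 (SE 0.715, adjusted p = 0.0410) and -1.76 (0.681, 0.0411) on the log2 scale by edgeR. Without replicate 4 at E12.5 the values were -0.77 in Tg(Kat6b) and -1.14 in wild type, and neither passed (adjusted p of 0.331 and 0.207). The Tg(Kat6b) call was also lost without replicate 2 at E12.5 or any 1 of the 4 at E15.5, and the wild-type call without replicate 3 at E12.5 or replicate 1, 2 or 4 at E15.5. In C57BL/6 the differences were -1.64 (SE 0.784) in labelled knockout and -1.03 (0.815) in wild type and did not pass (adjusted p of 0.0902 and 0.298). Without labelled knockout replicate 4 at E12.5 the first was -2.11 and passed (adjusted p = 0.0403 by edgeR). That library had the lowest Ogn level of its group, so leaving it out enlarges the fall by construction.

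Mgp encodes matrix Gla protein, an inhibitor of calcification in vessels and cartilage. It was close to the detection limit at both ages, at 0 to 0.682 CPM over the 18 libraries of E15.5 and 0.0628 to 1.77 CPM over the 14 of E12.5. Its log2 differences with age were -1.28 (SE 0.808) in labelled knockout, 1.04 (1.06) in C57BL/6 wild type, -0.47 (0.878) in Tg(Kat6b) and -1.03 (0.805) in FVBxBALB/c wild type, and none passed (adjusted p of 0.191 to 0.688 by edgeR). The counts behind these values were at most 57 reads in a library.

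**Figure D2:**
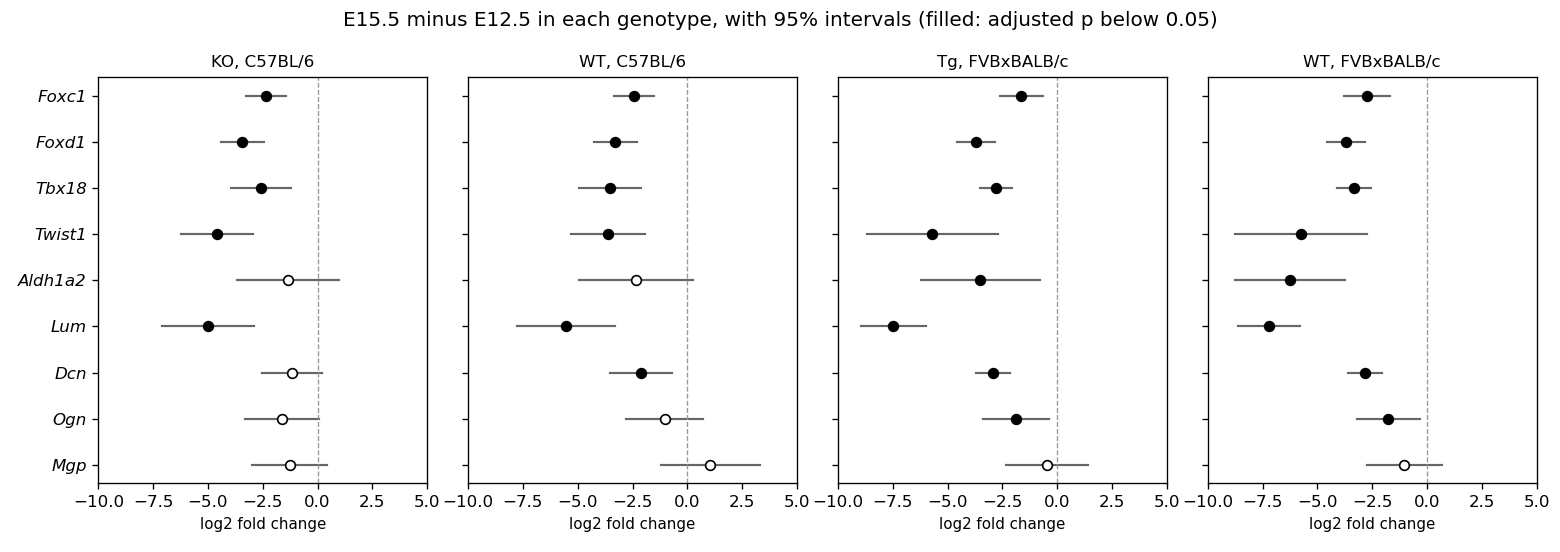
Log2 fold change of E15.5 over E12.5 for the 9 genes in each genotype and background, with 95% intervals from the edgeR fit; filled points had an adjusted p below 0.05. Lum lies furthest left in all 4 panels, and Aldh1a2 spans the widest range between panels, from -6.26 in FVBxBALB/c wild type to -1.35 in labelled knockout.

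Most of the other listed meningeal and mesenchymal genes also fell with age. Of 42 tested in C57BL/6, 29 fell and 2 rose in labelled knockout and 27 fell and 2 rose in wild type. Among all genes tested there, 27% fell and 29.4% rose in labelled knockout, and 28.2% fell and 28.6% rose in wild type. Of 40 tested in FVBxBALB/c, 30 fell and 2 rose in Tg(Kat6b) and 33 fell and 2 rose in wild type. Among all genes tested there, 22.5% fell and 23.8% rose in Tg(Kat6b), and 25.1% fell and 25.1% rose in wild type. Col15a1, a basement membrane collagen, fell to 2.64 ± 0.275 CPM in Tg(Kat6b) at E15.5, against 19.7 ± 5.40 at E12.5 (SD, n = 4 each). Prrx1, a homeobox factor of mesenchyme, fell to 11.8 ± 1.43 CPM in labelled knockout at E15.5 (n = 5), against 65.1 ± 36.7 at E12.5 (n = 3). Thy1, which neurons also carry, rose to 10.3 ± 1.56 against 0.128 ± 0.0658 CPM in the same libraries.

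Other small leucine-rich proteoglycans went both ways with age, with 4 of 11 higher and 4 lower in labelled knockout, 5 and 3 in C57BL/6 wild type, 2 and 4 of 10 in Tg(Kat6b) and 1 and 4 in FVBxBALB/c wild type. Biglycan (Bgn) fell to 17.1 ± 1.33 CPM in FVBxBALB/c wild type at E15.5, against 39.5 ± 14.8 at E12.5 (SD, n = 4 each). Chadl, a chondroadherin-like gene, rose to 8.30 ± 1.29 CPM in labelled knockout at E15.5 (n = 5), against 2.25 ± 0.653 at E12.5 (n = 3). Markers of other tissues are given beside all genes. Of all genes, 27%, 28.2%, 22.5% and 25.1% were lower in labelled knockout, C57BL/6 wild type, Tg(Kat6b) and FVBxBALB/c wild type. The shares higher were 29.4%, 28.6%, 23.8% and 25.1% in that order. Erythroid genes were lower in 10 of 11 tested in both C57BL/6 genotypes and in 7 of 11 in both FVBxBALB/c genotypes, and choroid plexus and hem genes in 10, 12, 17 and 14 of 18 in labelled knockout, C57BL/6 wild type, Tg(Kat6b) and FVBxBALB/c wild type. Caudal brain genes were called lower in 4 of 13 in both C57BL/6 genotypes, near the share of all genes. Their estimates there lay below 0 for 13 of 13 in labelled knockout and 12 of 13 in wild type. The median log2 changes were -1.33 and -1.47, beside -0.01 and -0.02 over all genes. In both FVBxBALB/c genotypes caudal brain genes were called lower in 11 of 11. Their median log2 changes there, -3.33 in Tg(Kat6b) and -4.27 in wild type, were as large as those of the 9 genes. Their sums were 53.7 to 63.4 CPM in Tg(Kat6b) at E15.5 against 145 to 400 at E12.5, and 45.5 to 79.9 in FVBxBALB/c wild type at E15.5 against 165 to 868 at E12.5. Surface ectoderm genes were called lower in 2 of 6 in both C57BL/6 genotypes, near the share of all genes. Their estimates there lay below 0 for 5 of 6 in both, with medians of -1.01 in labelled knockout and -1.35 in wild type. In both FVBxBALB/c genotypes surface ectoderm genes were called lower in 5 of 6, with medians of -3.29 in Tg(Kat6b) and -3.05 in wild type. Their sums were 3.44 to 4.93 CPM in Tg(Kat6b) at E15.5 against 7.91 to 81.7 at E12.5, and 2.42 to 8.12 in FVBxBALB/c wild type at E15.5 against 9.22 to 67.6 at E12.5. Cartilage and bone genes were lower in 8 and 5 of 13 in labelled knockout and C57BL/6 wild type. In Tg(Kat6b) and FVBxBALB/c wild type they were lower in 4 and 7 of 11. In the same order, endothelial genes were lower in 7, 8, 7 and 10 of 17 and higher in 4, 3, 3 and 3. Mural cell genes were higher in 5, 4, 6 and 5 of 14 and lower in 3, 3, 2 and 5. Microglia genes were higher in 3, 6, 6 and 7 of 14 and lower in 2, 0, 0 and 1. The part of any of these in the fall of the 9 genes was not tested.

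The labelled knockout did not differ detectably from wild type in any of the 9 genes. At E12.5, 0 of 9 were called by edgeR, where 0.0062% of all genes were, and 1 of 9 had an unadjusted p under 0.05, where 5.22% of all genes did. Estimates lay above 0 for 8 of 9, with a median log2 fold change of 0.25 against -0.01 over all genes. DESeq2 called 0 of 9 as well. The genotypes overlapped for each of the 9 genes, where 3.09% of all genes lay wholly above wild type and 3.81% wholly below.

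At E12.5 Mgp had the largest estimate, at 0.208, 1.77 and 0.130 CPM in labelled knockout against 0.103, 0.112 and 0.158 in wild type. Only replicate 3 stood clearly above the wild-type embryos. The log2 fold change was 2.52 (SE 1.02, unadjusted p = 0.0246, adjusted p = 0.881 by edgeR), and 0.45 without that library. Twist1 stood at 7.33, 37.9 and 3.52 CPM in labelled knockout against 13.9, 2.66 and 4.21 in wild type, and Ogn at 8.08, 39.3 and 4.01 against 13.9, 4.31 and 4.31. Their log2 fold changes were 1.23 (SE 0.754) and 1.19 (0.893), and -0.37 and -0.33 without replicate 3. That is the highest labelled knockout library for both, so leaving it out alone lowers the estimates by construction. Under the alternatives other than leaving out 1 library, Twist1 stayed at or above 0.66 and Ogn at or above 0.468. Without replicate 3 alone, 7 of the 9 estimates lay below 0. In the fit without the 8 high libraries, which drops wild-type replicate 1 as well, 6 of 8 genes tested lay above 0 and 2 below, with a median of 0.22. The intervals at 95% ran from -0.97 to 1.03 for Foxc1 and from -1.82 to 2.20 for Lum, which is as closely as 3 embryos per genotype bound these differences. Labelled knockout replicate 3 also had the highest sum of skeletal muscle genes, at 26.0 CPM against 4.41 to 8.10 in every other library of the series, and of cartilage and bone genes, at 530 CPM against 143 to 477. Their part in its high values was not tested.

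At E15.5 the estimates lay above 0 for 9 of 9 genes, with a median of 0.58 against 0.01 over all genes, and 0 of 9 were called by edgeR or DESeq2, where edgeR called 0% of all genes. None of the 9 had an unadjusted p under 0.05, where 2.83% of all genes did. Aldh1a2 had the largest estimate, at 1.85 (SE 1.14), then Dcn at 0.98 (0.603) and Lum at 0.76 (1.12), each with an adjusted p of 1. Without replicates 3 and 4, the estimates lay below 0 for 9 of 9 genes, with a median of -0.56. These are the highest knockout libraries in the 9 genes, so leaving them out alone lowers the estimates by construction. In the fit without the 8 high libraries, which drops wild-type replicate 3 as well, 3 of 8 genes tested lay above 0 and 5 below, with a median of -0.18. The 2 knockout embryos had summed levels of the 9 genes of 52.1 and 53.6 CPM, against 12.1 to 19.7 in the other 3 labelled knockout embryos and 11.9 to 43.2 in the 5 wild types.

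The same embryos were high in choroid plexus and hem genes, with sums of 597 and 615 CPM. Labelled knockout replicate 1 was as high, at 624, with 19.7 CPM of the 9 genes, and the other 2 had 113 and 132. In wild type the highest sum of the 9 genes, 43.2 CPM in replicate 3, came with the highest choroid plexus and hem sum, 748, while replicate 4 had 439 with 13.7 CPM of the 9 genes. Replicates 3 and 4 of the labelled knockout also had caudal brain gene sums of 329 and 327 CPM, against 43.3 to 51.4 in the other 3 and 38.9 to 309 in wild type. The part of any of these in the result was not tested.

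Tg(Kat6b) was set against wild type of the same background. At E12.5, 0 of 9 genes were called by edgeR or DESeq2, where edgeR called 0.0129% of all genes, and 1 of 9 had an unadjusted p under 0.05, where 6.68% of all genes did. Estimates lay below 0 for 7 of 9 genes, with a median of -0.27 against -0.01 over all genes. Aldh1a2 had the largest, at 1.31 ± 0.413 CPM in Tg(Kat6b) against 8.74 ± 12.8 in wild type (SD, n = 4 each), a log2 change of -2.77 (SE 0.820, unadjusted p = 0.00384, adjusted p = 0.724 by edgeR). Tg(Kat6b) libraries had 0.876 to 1.87 CPM and 3 wild types 1.32 to 4.07, while wild-type replicate 4 had 27.9. Without that library the value was -0.89, and 7 of the 9 estimates lay above 0. In the fit without the 8 high libraries, which drops Tg(Kat6b) replicate 4 as well, 1 of 8 genes tested lay above 0 and 7 below, with a median of -0.15. Twist1 was at 0.04 (SE 0.935), and it lay at -2.43 without Tg(Kat6b) replicate 4 and at 1.17 without wild-type replicate 4. The other 7 genes had log2 differences between -0.75 for Ogn and 0.10 for Foxd1, each smaller than 1.5 times its SE.

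Both high FVBxBALB/c libraries of E12.5, replicate 4 of each genotype, were also the 2 highest of the series in surface ectoderm genes. Their sums were 81.7 CPM in Tg(Kat6b) and 67.6 in wild type, against 2.42 to 17.2 in every other library. They also had the 2 highest sums of erythroid genes, 4610 CPM in Tg(Kat6b) and 9840 in wild type. Their part in the result was not tested.

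At E15.5, 4 of 9 estimates lay above 0 and 5 below, with a median of -0.02 against 0.00 over all genes. None of the 9 was called by edgeR or DESeq2, where edgeR called 0.0129% of all genes, and 0 had an unadjusted p under 0.05, where 2.22% of all genes did. Foxc1 stood at 6.39, 7.12, 6.06 and 4.50 CPM in Tg(Kat6b) against 3.48, 4.74, 4.37 and 4.13 in wild type. The Tg(Kat6b) libraries were higher in 3 of 4 and the fourth lay within the wild-type range. The log2 change was 0.52 (SE 0.505, adjusted p = 1 by edgeR). Ogn stood at 2.40 ± 0.870 CPM in Tg(Kat6b) and 4.41 ± 2.15 in wild type (SD, n = 4 each), a change of -0.87 (SE 0.737, adjusted p = 1). Aldh1a2 and Twist1 had 0 to 6 reads per library at this age, and their intervals spanned from -5.27 to 5.24 and from -4.45 to 4.62.

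**Figure D3:**
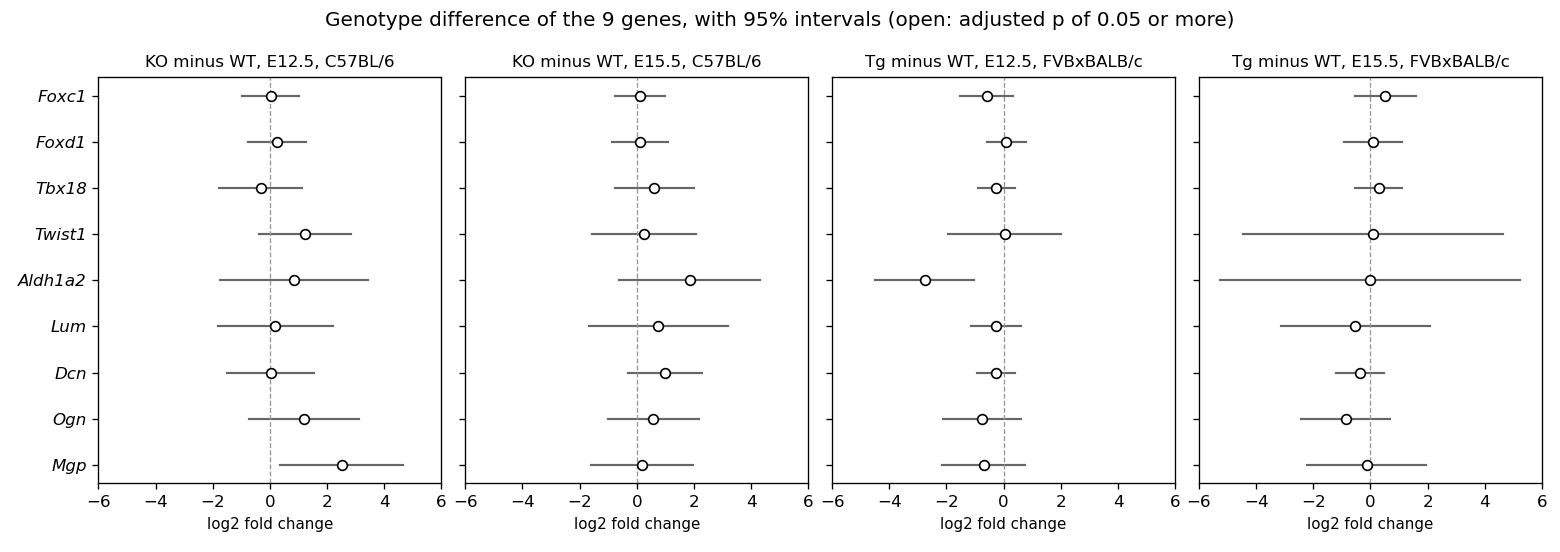
Log2 fold change of labelled knockout (KO) or Tg(Kat6b) (Tg) over wild type (WT) for the 9 genes at each age, with 95% intervals from the edgeR fit; open points had an adjusted p of 0.05 or more. All 36 points are open, and the 2 intervals that do not reach 0, Mgp in KO at E12.5 and Aldh1a2 in Tg at E12.5, belong to genes with 1 high library.

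The change of each genotype difference between ages was tested directly, and 0 of 9 genes passed for the labelled knockout or for Tg(Kat6b) by edgeR or DESeq2, where edgeR called 0% of all genes in both. An unadjusted p under 0.05 was found for 0 of 9 in both, where 2.72% of all genes had one for the labelled knockout and 4.04% for Tg(Kat6b). Wild types of the backgrounds were also compared, C57BL/6 against FVBxBALB/c. None of the 9 genes was called at E12.5, where 12.8% of all genes were (7.19% higher and 5.59% lower in C57BL/6), or at E15.5, where 25.3% were (11.3% higher, 13.9% lower). An unadjusted p under 0.05 was found for 1 of 9 at E12.5, where 26.2% of all genes had one, and for 0 at E15.5, where 37.2% did. That gene was Mgp, at 0.103, 0.112 and 0.158 CPM in C57BL/6 against 0.0628, 0.0991, 0.578 and 1.14 in FVBxBALB/c. Of the 4 FVBxBALB/c libraries, 2 lay below every C57BL/6 library. The log2 difference was -2.06 (SE 0.97, unadjusted p = 0.0428, adjusted p = 0.174 by edgeR), and without FVBxBALB/c replicate 4 it was -1.22 (unadjusted p = 0.241, adjusted p = 0.423). DESeq2 called 0 of 9 at both ages.

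Within a group, libraries that were high in 1 of the 9 genes tended to be high in the others. Each library's log2 CPM was set against its group mean, and the 36 pairs of genes were correlated over libraries as a description. Libraries share tissue and depth, so pairs are not independent. Over all 32 libraries Pearson's r ran from 0.37 (Foxd1 with Mgp) to 0.884 (Twist1 with Ogn), with a median of 0.687. Over the 14 libraries of E12.5 it ran from 0.174 (Foxd1 with Dcn) to 0.991 (Lum with Tbx18), median 0.788, and over the 18 of E15.5 from 0.277 (Foxd1 with Mgp) to 0.912 (Aldh1a2 with Lum), median 0.672. Foxd1 was in the lowest pairs at both ages.

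All 9 genes lay above their group mean in 6 libraries, labelled knockout replicates 3 and 4 and wild-type replicate 3 at E15.5 in C57BL/6, labelled knockout replicate 3 at E12.5, and replicate 4 of both FVBxBALB/c genotypes at E12.5. In wild-type replicate 4 of FVBxBALB/c at E12.5 the median deviation was 1.45 (log2), with 2.76 for Aldh1a2 and 0.36 for Foxd1. In Tg(Kat6b) replicate 4 at E12.5 the median was 0.793, and Twist1 deviated by 3.33. The high libraries differed in which of the 9 genes stood out.

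**Figure D4:**
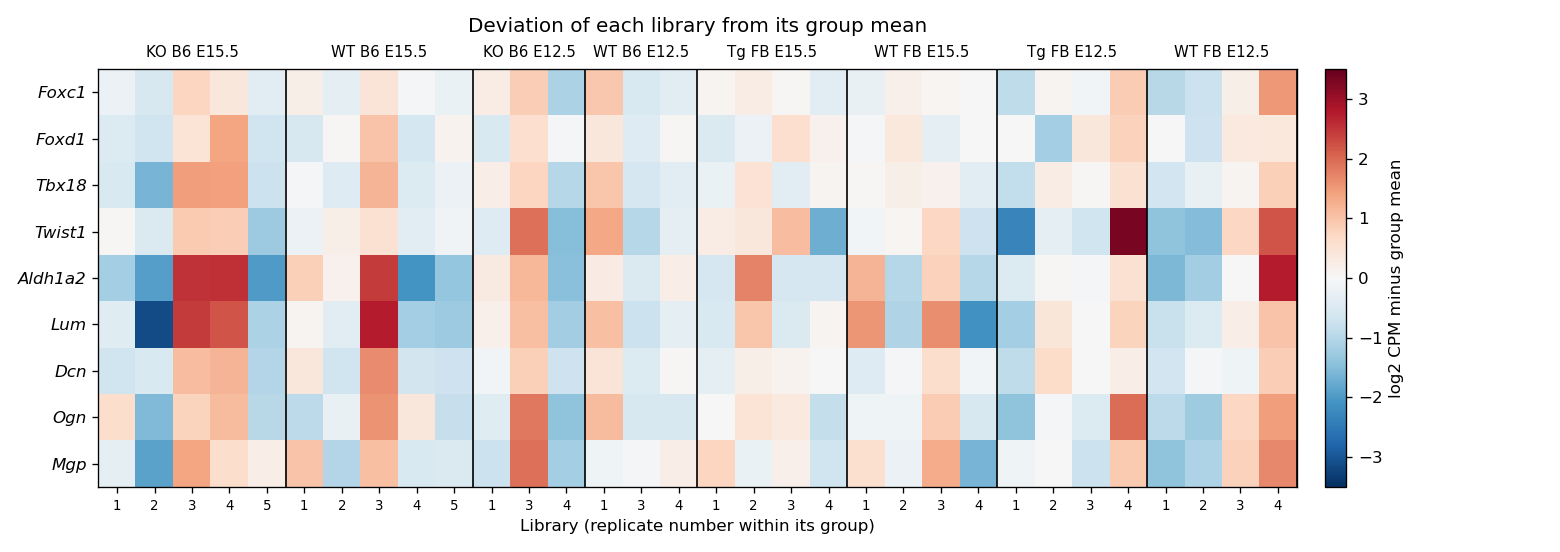
Log2 CPM of each library minus the mean of its group, for the 9 genes (rows) and 32 libraries (columns, by replicate number), red above and blue below the group mean. Whole columns are red for labelled knockout (KO) replicates 3 and 4 and wild-type (WT) replicate 3 at E15.5 in C57BL/6 (B6). At E12.5 they are red for KO replicate 3 and for replicate 4 of both FVBxBALB/c (FB) groups, where Tg replicate 4 is darkest in Twist1.

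The 10 genes that followed the 9 most closely over the 32 libraries, by Pearson's r of log2 CPM centred on group means with the mean of the 9, were Col1a2 (0.969), Col3a1 (0.960), Islr (0.945), Serpinf1 (0.944), Colec12 (0.941), Igf2 (0.930), Dab2 (0.926), Col6a2 (0.925), Lepr (0.905) and Cd248 (0.904). Col1a2, Col3a1 and Col6a2 encode fibrillar and microfibrillar collagen chains, Igf2 a growth factor and Lepr the leptin receptor. Among the listed genes, 38 of 42 other meningeal and mesenchymal genes had r above 0.5, against 1244 of 16397 genes in all. Their median r was 0.776, and the median over all genes was -0.03. The next medians were 0.669 for endothelial, 0.515 for cartilage and bone, 0.5 for retinoic acid pathway, 0.472 for erythroid and 0.467 for surface ectoderm genes. Below these came choroid plexus and hem (0.452), mural cell (0.376), microglia (0.35) and other small leucine-rich proteoglycan genes (0.333). Caudal brain genes had 0.224, skeletal muscle genes 0.176 and cortical neural genes -0.356.

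**Figure D5:**
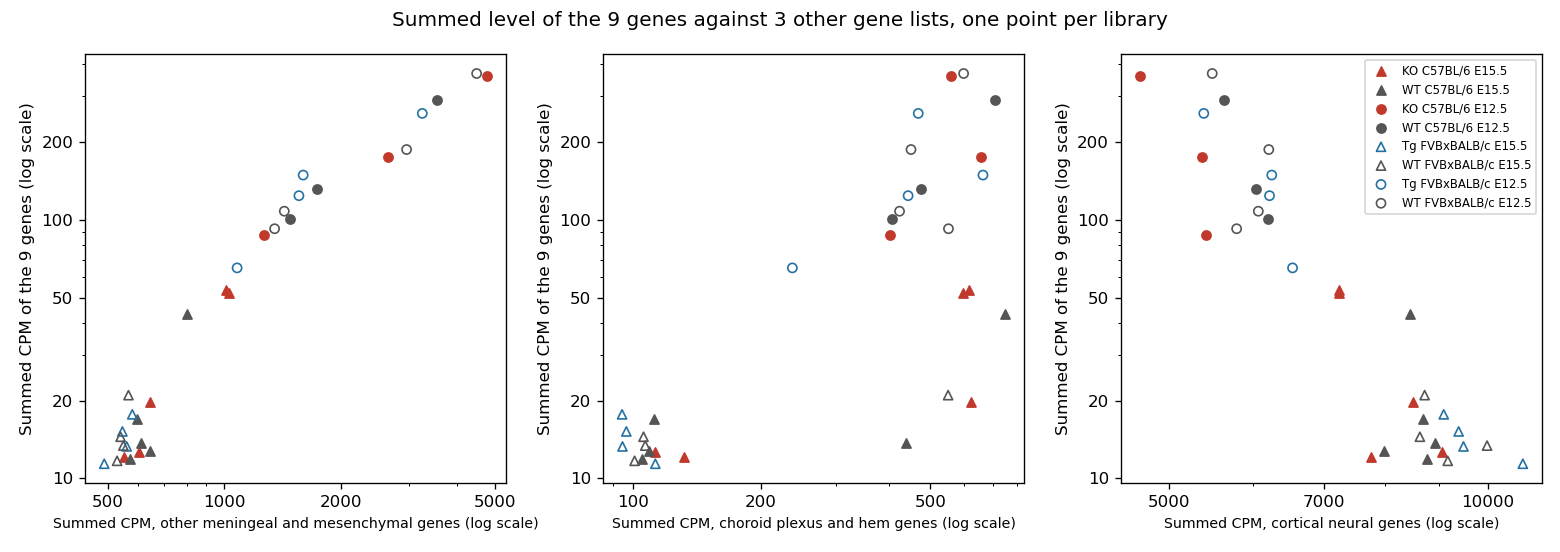
Summed CPM of the 9 genes (vertical, log scale) against the summed CPM of 3 other gene lists (horizontal, log scale), 1 point per library (other meningeal and mesenchymal, choroid plexus and hem, and cortical neural genes), with triangles for E15.5, circles for E12.5, filled for C57BL/6 and open for FVBxBALB/c. The sum of the 9 genes climbs with other meningeal and mesenchymal genes, from 11.4 to 368 CPM, while choroid plexus and hem sums at E15.5 lie either at 94.4 to 132 or at 439 to 748, where the higher ones include libraries with both low and high sums of the 9 genes.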

How the data were processed

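RNA was measured in 32 libraries. Per the labels, each was made from total RNA with a TruSeq kit and sequenced on a NextSeq500 as 66-base paired reads. The submitters' processing notes name bcl2fastq, featureCounts and mm10, with aligner, annotation and strand setting not given in the sources used here. The authors deposited raw counts per gene, and 848 rows without a symbol (0.305% to 2% of counts) were left out. Groups came from the labels. Named genes were filtered with filterByExpr, TMM-scaled and tested with edgeR 4.0.16 (robust quasi-likelihood, limma 3.58.1, R 4.3.3) in 1 fit per background, 16118 genes in C57BL/6 and 15556 in FVBxBALB/c, or in 1 fit of all 32 libraries (16399 genes) between backgrounds. P-values were Benjamini-Hochberg adjusted over all genes, at 0.05. Standard errors were worked back from the F test. CPM used TMM-scaled library sizes. DESeq2 1.42.0, RLE size factors, no filter, narrower fits, blocks and left-out libraries were alternatives. The code was tested on simulated data. Of the listed genes other than the 9, those with the 3 smallest p in a list and comparison could be named, and the 10 most alike genes by correlation. The 9 genes and the lists were chosen with earlier results of these data known. No 2 replicates agreed within sampling noise (chi-square per degree of freedom at least 6.31). In C57BL/6 the labels tie same-numbered E15.5 embryos to 1 litter, so these numbers pair the samples; their deviations correlated at -0.107 to 0.374, and at E12.5, where replicates 3 and 4 share a litter, at -0.352 to 0.376.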

Additional observations from a re-analysis of the deposited data

Results flagged for a closer look

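In 7 of 54 sets of 4 or 5 replicates, 1 library stood further from the rest than Dixon's 95% critical value allows. Chance passes that value in about 1 in 20 independent sets of normally distributed values. The gaps here were taken on CPM not on a log scale, whose distribution was not tested. These sets also share libraries and the genes move together, so the number is not set against that share. Of the 7, 3 come from 1 library, C57BL/6 wild-type replicate 3 at E15.5. In FVBxBALB/c wild type at E12.5, Aldh1a2 was 27.9 CPM in replicate 4 and 1.32 to 4.07 in the others. In Tg(Kat6b) at E15.5, Aldh1a2 was 0.326 CPM in replicate 2 and 0 in the others, a gap that any library with reads would give there. In Tg(Kat6b) at E12.5, replicate 4 had Twist1 at 49.0 CPM, against 0.902 to 3.80 in the others, and Ogn at 24.3, against 2.29 to 5.94. In C57BL/6 wild type at E15.5, replicate 3 had Lum at 5.97 CPM, against 0.291 to 0.883, Dcn at 12, against 2.25 to 4.94, and Tbx18 at 3.01, against 0.889 to 1.24.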

How the results depend on the processing

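The number of the 9 genes called stayed within 1.5 times its value under each alternative run. It was 0 throughout for the genotype, interaction and background comparisons. For age it was 5 to 7 in labelled knockout, 5 to 7 in C57BL/6 wild type, 6 to 8 in Tg(Kat6b) and 7 to 8 in FVBxBALB/c wild type, and leaving out 1 library gave 5 to 6, 5 to 7, 6 to 8 and 7 to 8. Over all genes, DESeq2 called 3, 7, 4 and 7 in labelled knockout at E12.5 and E15.5 and Tg(Kat6b) at E12.5 and E15.5, against 1, 0, 2 and 2 by edgeR. The replicate block called 0, 0, 3 and 3, and the litter block 0 and 1 in the labelled knockout.

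Directions of single genotype differences were not stable. With the replicate block, the labelled knockout at E12.5 had Foxc1 at -0.023 and Dcn at -0.072, at E15.5 Foxd1 was -0.0158 (litter block -0.0162), and Tg(Kat6b) at E12.5 had Twist1 at -0.60. The block changed no call of the 9 genes. In FVBxBALB/c the samples share only a number, with correlations of -0.111 to 0.562, and not every sample was most alike to its own number. Without labelled knockout replicates 3 and 4 at E15.5 the values were Foxc1 -0.34, Foxd1 -0.82, Aldh1a2 -1.60, Mgp -0.56, Lum -1.54, Dcn -0.10, Tbx18 -0.78, Twist1 -0.56 and Ogn -0.068. Without the 8 libraries whose median deviation was above 0.7, an alternative chosen after seeing the data in which Mgp was not tested, labelled knockout had Dcn at -0.25 at E12.5, and Foxc1 -0.20, Foxd1 -0.50, Aldh1a2 -0.17, Tbx18 -0.31 and Twist1 -0.40 at E15.5. Tg(Kat6b) then had Foxd1 -0.071, Dcn 0.0575 and Twist1 -1.29 at E12.5, and Foxd1 -0.053, Aldh1a2 0.51 and Lum 0.19 at E15.5.

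Leaving out 1 library gave these ranges where a direction turned. In labelled knockout at E12.5 they were Foxc1 -0.46 to 0.66, Foxd1 -0.11 to 0.49, Lum -0.44 to 0.91, Dcn -0.51 to 0.33, Tbx18 -0.75 to 0.33, Twist1 -0.37 to 2.26 and Ogn -0.33 to 1.99. At E15.5 they were Foxc1 -0.10 to 0.26, Foxd1 -0.48 to 0.43, Mgp -0.21 to 0.71 and Twist1 -0.060 to 0.58. In Tg(Kat6b) at E12.5 they were Foxc1 -0.97 to 0.18, Foxd1 -0.19 to 0.36, Mgp -1.14 to 0.15, Lum -0.55 to 0.17, Dcn -0.51 to 0.11, Tbx18 -0.44 to 0.10 and Twist1 -2.43 to 1.17. At E15.5 they were Foxd1 -0.17 to 0.28, Aldh1a2 -4.44 to 0.67, Mgp -0.54 to 0.64, Lum -1.26 to 0.18 and Twist1 -0.36 to 0.46. With age, Mgp in labelled knockout ran from -1.78 to 0.79. The cause was not tested. Of the age calls, Aldh1a2 in Tg(Kat6b) and Ogn in both FVBxBALB/c groups were also lost with no filter on low counts (adjusted p of 0.0675, 0.0854 and 0.0831 by edgeR). Ogn in Tg(Kat6b) was lost with only the compared groups fitted (0.0576), where Aldh1a2 in C57BL/6 wild type passed (0.0328).

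Depth limits Mgp at both ages and Aldh1a2, Twist1 and Lum at E15.5, where libraries hold few reads. No paired fit was made for the age comparisons, whose embryos differ, and no litter block in FVBxBALB/c, where litters are not given. Fold changes of single genes were not recomputed for the interaction and background comparisons, for which counts alone are given, except Mgp between the wild types at E12.5.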
